A study of Mus musculus with 4 samples.

Results

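Isoforms that carry an intron were followed across 4 Nanopore long-read cDNA libraries of cultured mouse neural stem cells. The isoforms were the rows of the deposited isoform table that bear a plain Ensembl transcript name and that GENCODE M21, an annotation of the mouse genome, classes as retained intron. Of 4679 such rows, 2054 isoforms in 1565 genes had at least 10 reads over the 4 libraries, in a gene with at least 20 reads in each library. These limits use reads from all libraries, so 146 of the 2054 isoforms had no read in the control library and entered only through the others. Only 635 had 10 or more reads in the control library alone, and the rest passed with the help of reads from the other libraries. The table held 22439 isoforms within the same limits in genes with at least 2 isoforms, and 2050 of the 2054 could be tested among them. The other 4, in Sema6d, Bag6, Usp19 and Ppp6r2, were the only isoform row of their gene.

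Tut1 is a uridylyltransferase of U6 snRNA, the spliceosomal RNA that pairs with the 5′ splice site of an intron, and the study asked what its loss does to splicing. Neural stem cells grown as neurospheres from E12.5 neocortex of floxed mice were used. The control library was Tut1f/f cells given empty lipid nanoparticles. The other libraries came from cells given Cre mRNA in such particles for 3 days: the Tut1-labelled library from Tut1f/f;Cre cells, the Trp53-labelled library from Trp53f/f;Cre cells, whose Tut1 is intact by label, and the double-labelled library from Tut1f/f;Trp53f/f;Cre cells. There was 1 library per genotype, so each test below compares the reads of libraries and not of conditions, and exposure to Cre mRNA cannot be told apart from genotype in any comparison with the control library. The samples are bulk cultures, so fewer cells of a type and less RNA per cell cannot be told apart. Values of the 4 libraries are given in that order unless named.

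An intron is normally cut out between a 5′ splice site that begins with GT and a 3′ splice site that ends with AG. A transcript that keeps one is often held in the nucleus or degraded, and many splicing factors hold back part of their own mRNA in this way. Ensembl gives the class retained intron both to transcripts that run through a whole intron and to transcripts that start or stop inside one. An isoform of the latter kind reads across only 1 of the splice sites, so it shows intronic sequence in the RNA but not the joining of both flanking exons to it.

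The libraries held 5125888, 4253498, 4830314 and 3936827 reads, of which 4244467, 2968653, 3432639 and 2863392 fell in genes. Trp53 had 175, 67, 10 and 19 reads. Tut1 had 37, 11, 14 and 27 reads, which goes against the labels of the last pair, although the deletion removes 1 exon and total reads need not fall. Of 10 neural stem cell markers, 9 had reads in every library and Msi1 had none, and their sum ranged from 11315 to 13797 CPM, which are reads scaled to a fixed total of gene reads. Most of that sum was Fabp7, at 9288 to 11728, and other members differed more between the control library and the rest, such as Hes1 at 139.9 against 462.0 to 509.7 and Vim at 1185 against 628.7 to 773.4. Summed markers of the oligodendrocyte lineage were 330.1, 594.2, 685.5 and 487.2 in the control, Tut1-, Trp53- and double-labelled libraries, mostly Olig2, with Mog at 0. Those of astrocytes were 99.2, 59.6, 49.8 and 83.5, with Gfap at 0, and those of neurons ranged from 68.8 to 85.2, with Rbfox3 and Neurod2 at 0. Of 6 microglia and blood markers none had a read, and of 6 endothelial and mesenchymal markers only Col1a1 had 1.

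Sequences of 2 sets show what these isoforms look like. The first set holds 5 isoforms with many reads among those that end inside an intron, were called higher in all 3 comparisons with the control library and were named by the rule given under the processing. For each, the 5′ splice site of the intron is shown with 3 exonic and 6 intronic bases and the first 2 intronic bases in capitals, followed by the last 30 bases of the annotated isoform in lower case. Positions are on GRCm38 (mm10), and introns are numbered from the 5′ end of the principal coding transcript of the gene.
Prpf4b intron 2, 5′ splice site, chr13:34884425-34884433, plus strand: gagGTaacc
Prpf4b isoform end, chr13:34884737-34884766, plus strand: actgcccggcagcaatttatattttaaagg
Slc1a3 intron 3, 5′ splice site, chr15:8688282-8688290, minus strand: cagGTaccg
Slc1a3 isoform end, chr15:8687898-8687927, minus strand: accgtgaatgaggtgccctgctaaacacca
Map2 intron 6, 5′ splice site, chr1:66401519-66401527, plus strand: aagGTaagg
Map2 isoform end, chr1:66404102-66404131, plus strand: taagaacatacttccttcttcttaaatatc
Polk intron 3, 5′ splice site, chr13:96516633-96516641, minus strand: cagGTattt
Polk isoform end, chr13:96516082-96516111, minus strand: atgttctccagaaatctcaagaggtgagag
Prpf31 intron 3, 5′ splice site, chr7:3630903-3630911, plus strand: aagGTgcct
Prpf31 isoform end, chr7:3631392-3631421, plus strand: gtgagacaacacctatgtttaaaaaaaagg

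All 5 read across a GT without joining it to the next exon. The isoform of Prpf4b ended 339 bases into an intron of 2242 bases, that of Slc1a3 ended 390 bases into one of 37234 bases, and that of Polk ended 557 bases into one of 8274 bases. The isoform of Map2 ended 2610 bases into an intron of 10885 bases, and that of Prpf31 ended 516 bases into one of 1762 bases. None of the 5 held a poly(A) signal, AATAAA or ATTAAA, in its last 30 bases, although that of Prpf4b held one within its last 50.

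The second set holds the whole introns kept by the 6 named isoforms of that form that were called higher in all 3 comparisons with the control library. The 3′ splice site is shown with 20 intronic and 3 exonic bases, with the last 2 intronic bases in capitals.
Clk1 intron 3, 5′ splice site, chr1:58421077-58421085, minus strand: gggGTatga
Clk1 intron 3, 3′ splice site, chr1:58420209-58420231, minus strand: cgcccacttgacgtgtccAGaag
Clk1 intron 4, 5′ splice site, chr1:58420115-58420123, minus strand: gatGTatag
Clk1 intron 4, 3′ splice site, chr1:58419731-58419753, minus strand: taattattcctcttttttAGatg
Clk1 intron 6, 5′ splice site, chr1:58417261-58417269, minus strand: tttGTaagt
Clk1 intron 6, 3′ splice site, chr1:58417177-58417199, minus strand: tttttttaacgtgtttatAGccg
Copa intron 5, 5′ splice site, chr1:172091238-172091246, plus strand: ctgGTaaac
Copa intron 5, 3′ splice site, chr1:172092225-172092247, plus strand: tatgttttttttctttgcAGtgt
Prc1 intron 3, 5′ splice site, chr7:80301157-80301165, plus strand: cagGTctgg
Prc1 intron 3, 3′ splice site, chr7:80304341-80304363, plus strand: aatcatgtaatctcctccAGgaa
Gtf3c1 intron 14, 5′ splice site, chr7:125669577-125669585, minus strand: tagGTaagg
Gtf3c1 intron 14, 3′ splice site, chr7:125669416-125669438, minus strand: ccacacctttctccctacAGttc
Gtf3c1 intron 16, 5′ splice site, chr7:125668848-125668856, minus strand: aagGTacct
Gtf3c1 intron 16, 3′ splice site, chr7:125668089-125668111, minus strand: cctccaggtgacctctgtAGgtg
Ahsa1 intron 3, 5′ splice site, chr12:87269955-87269963, plus strand: gagGTttgt
Ahsa1 intron 3, 3′ splice site, chr12:87270317-87270339, plus strand: tgtgtttgatctctcactAGatt
Dlst intron 1, 5′ splice site, chr12:85110957-85110965, plus strand: aagGTactg
Dlst intron 1, 3′ splice site, chr12:85111478-85111500, plus strand: aatgtcttctttctcaacAGggg

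These 9 introns all began with GT and ended with AG. Prc1 and Ahsa1 isoforms ended in an exon, whereas those of Clk1, Copa, Gtf3c1 and Dlst also ended inside a later intron. Clk1 kept introns 3, 4 and 6 of 12 together, of 871, 387 and 87 bases, and Gtf3c1 kept introns 14 and 16 of 36. Prc1 kept intron 3 of 13, the longest of the 9 with 3201 bases. Among all 2054 isoforms, 502 kept 636 whole introns of the principal coding transcript, of which 628 were GT-AG, 6 were GC-AG and 2 were AT-AC. The 601 different introns among them had a median length of 320 bases, against 1268 bases for the 19626 introns of the host transcripts.

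The share of reads from retained-intron isoforms was lowest in the control library. All 4679 rows together took 39308 reads, or 0.926% of gene reads (95% Wilson interval 0.917 to 0.935), in the control library. They took 1.55% (1.53 to 1.56) in the Tut1-labelled library, 1.45% (1.44 to 1.47) in the Trp53-labelled library and 1.51% (1.495 to 1.523) in the double-labelled library. The interval of the control library did not meet those of the 3 libraries that received Cre mRNA. These intervals cover counting error only. The ribosomal RNA gene CT010467.1 took 18.7%, 9.75%, 8.91% and 5.46% of gene reads. Without it the shares were 1.14%, 1.71%, 1.59% and 1.60%, so the order of the control library against the rest stayed. Within the host genes, the 2054 isoforms took 3.32% (3.28 to 3.35), 5.02% (4.98 to 5.07), 4.66% (4.62 to 4.70) and 4.51% (4.47 to 4.55) of reads. With each host gene given equal weight, the median of the summed usage was 3.67%, 8.70%, 7.45% and 7.46%. Usage is the share of a gene's reads that an isoform takes.

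**Figure D1:**
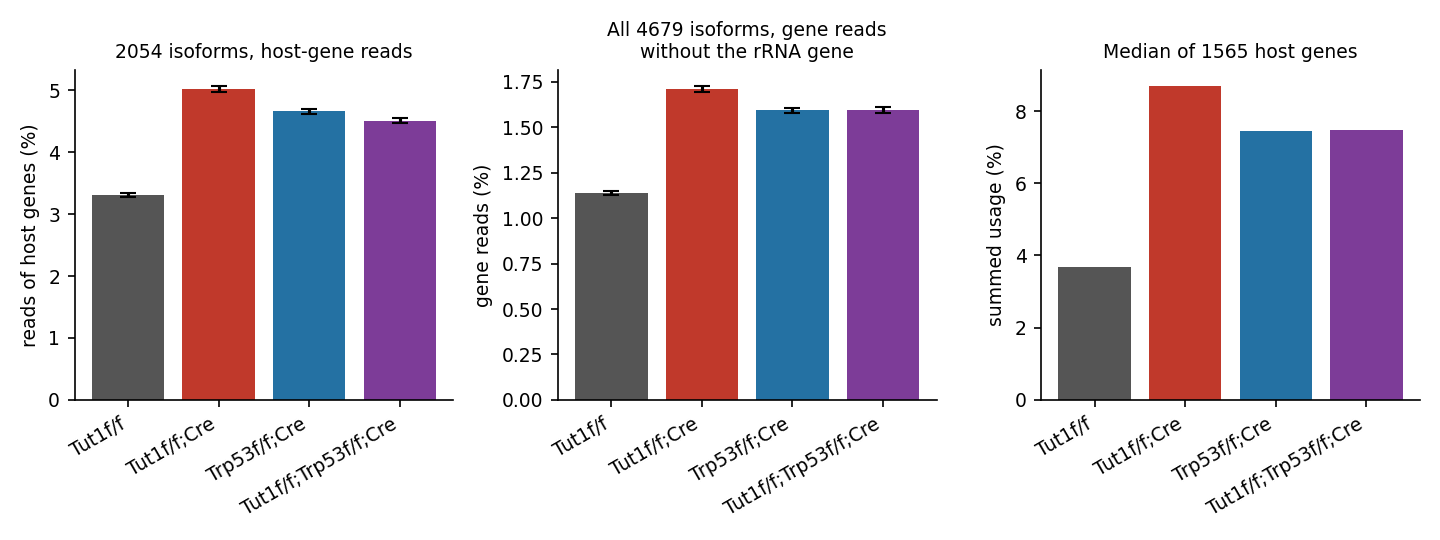
Share of reads from annotated retained-intron isoforms in each of the 4 libraries, as percent of host-gene reads (left), percent of all gene reads without the ribosomal RNA gene (middle) and the median over 1565 host genes (right). Bars are single libraries and whiskers are 95% Wilson intervals (none for a median). In each panel the control bar (Tut1f/f) is the lowest, at 3.32%, 1.14% and 3.67%.

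Other values of the libraries moved with this split. Reads at loci outside genes took 17.2%, 30.2%, 28.9% and 27.3% of all reads, and the read-weighted median annotated length of tested isoforms with an Ensembl name was 1208, 949, 937 and 977 bases. The oligodendrocyte-lineage sum and the stem cell markers Hes1, Nes (130.8, 311.9, 293.4 and 205.4 CPM) and Sox9 (34.6, 88.3, 91.2 and 69.5 CPM) were lowest in the control library, and Vim and the astrocyte sum were highest there, the latter mostly through Aldh1l1 at 44.1, 5.39, 3.2 and 24.8 CPM, while S100b and Aqp4 were lowest in the control library. Their part in the result was not tested. Shares called can be set beside those of protein-coding isoforms of like annotated length. Of isoforms of 262 to 698 bases, 6.63% of 513 retained-intron isoforms and 2.42% of 578 protein-coding isoforms were called higher in the Tut1-labelled library than in the control library. Of isoforms over 2068 and up to 5927 bases, the shares were 14.4% of 513 and 4.23% of 2999. Called lower were 1.17% and 1.04% of the shorter isoforms, and 1.56% and 9.17% of the longer ones, in the same order.

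A change was called where a two-sided Fisher's exact test on the reads of 2 libraries, adjusted by Benjamini-Hochberg over all 22439 isoforms, gave a false discovery rate (FDR) under 0.05 and usage differed by at least 10 percentage points. In the Tut1-labelled library against the control library, 213 of the 2050 isoforms were called higher (10.4%) and 23 lower (1.12%), against 3.42% higher and 3.44% lower of all isoforms tested. In the Trp53-labelled library against the control library, 209 were called higher (10.2%) and 24 lower (1.17%), against 3.7% and 3.49% of all isoforms. In the double-labelled library against the control library, 155 were called higher (7.56%) and 24 lower (1.17%), against 2.5% and 2.61%. The median difference over the retained-intron isoforms was 1.91, 1.37 and 1.44 points, while the median over all isoforms in the Tut1-labelled library against the control library was 0.02 points. Protein-coding isoforms had medians of -0.48, -0.26 and -0.43 points, and isoforms annotated for nonsense-mediated decay, which carry early stop codons, had a median of 0.00 points in the Tut1-labelled library against the control library with 5 of 331 called higher. Annotated processed transcripts, a further noncoding class, had medians of 0.57, 0.47 and 0.44 points, and 39, 35 and 27 of 594 were called higher (6.57%, 5.89% and 4.55%), also above the shares of all isoforms. These 3 comparisons share the control library, so they are not separate evidence. With no minimum of reads per isoform, 203, 196 and 147 of 3570 isoforms were called higher (5.69%, 5.49% and 4.12%), against 2.33%, 2.54% and 1.71% of all 30425 isoforms.

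Few isoforms were called among the libraries that received Cre mRNA. In the double-labelled library against the Trp53-labelled library, 5 isoforms were called higher (0.244%) and 10 lower (0.488%), against 0.374% and 0.504% of all isoforms. In the double-labelled library against the Tut1-labelled library, 0 were called higher and 1 lower, against 0.0357% and 0.0446%. That isoform was Ahsa1, described below. In the Tut1-labelled library against the Trp53-labelled library, none was called in either direction, against 0.0535% higher and 0.0713% lower. This last pair differs in Tut1 and Trp53 status, and both libraries received Cre mRNA.

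Isoforms that end inside an intron made up most of those called higher. Of 862 isoforms that start in an exon and end in an intron, 132 (15.3%) were called higher and 4 lower in the Tut1-labelled library against the control library, and 128 (14.8%) were called higher and 3 lower in the Trp53-labelled library against the control library. Of 224 that both start and end in an intron, 24 and 28 were called higher (10.7% and 12.5%). Of 502 that keep a whole intron, 33 and 30 were called higher (6.57% and 5.98%). Among the 502, those that also ended inside a later intron were called higher in 22 of 171 (12.9%) in the Tut1-labelled library and 19 of 171 (11.1%) in the Trp53-labelled library. Those that ended in an exon were called higher in 11 of 331 (3.32%) in each, close to the background of 3.42% and 3.7%. Of 398 that start in an intron and run into exons, 22 and 18 were called higher (5.53% and 4.52%) and 12 and 11 lower. In the double-labelled library against the control library, 8 of these 398 were called higher (2.01%) and 15 lower (3.77%). The remaining 68 isoforms held another part of an intron, no intron of the principal transcript, or lay in a gene without a coding transcript. Summed over isoforms, isoforms that end in an intron had 7271 reads in the control library and 12944, 13135 and 12445 reads, while whole-intron isoforms had 13674 reads in the control library and 11973, 13465 and 11568 in the others, from fewer gene reads. Median usage of the form that ends in an intron was 2.57%, 7.08%, 6.24% and 6.32%, and that of the whole-intron form was 3.33%, 5.59%, 4.60% and 5.15%. With the most reads, 33.7% of 187 isoforms that end in an intron and 9.94% of 161 whole-intron isoforms were called higher in the Tut1-labelled library. With the fewest reads it was 9 of 237 (3.80%) and 1 of 120 (0.833%). The other forms were not split by depth, and the part of depth was not tested.

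The place of the intron in the gene went with the calls. Where the intronic sequence lay on average within the first 20% of the introns, counted from the 5′ end, 82 of 477 isoforms (17.2%) were called higher and 0 lower in the Tut1-labelled library against the control library. The share called higher was 13.5% of 458, 7.94% of 403 and 5.41% of 370 in the next bins, and in the last 20% it was 5.24% of 286, with 10 lower. The Trp53-labelled library gave 15.5% in the first bin and 5.24% in the last. The double-labelled library gave 13.4% in the first bin and 3.15% in the last, where 9 were called higher and 11 lower. Form and place are linked, since many isoforms that end in an intron keep the 5′ part of a gene, and their separate parts were not tested. Of 1028 isoforms that read across the 5′ splice site of the intron they end in, 1024 (99.6%) had GT there. The median stretch covered was 593 bases, the median share of the intron covered was 24.1% and the median intron length was 2829 bases. For the 148 called higher in the Tut1-labelled library the median was 966 bases in introns of 3961 bases, and for the other 880 it was 558 bases in introns of 2750 bases. Isoforms with 1283 to 5168 intronic bases were called higher in 17.3% of 504, and those with under 255 in 6.51% of 507.

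**Figure D2:**
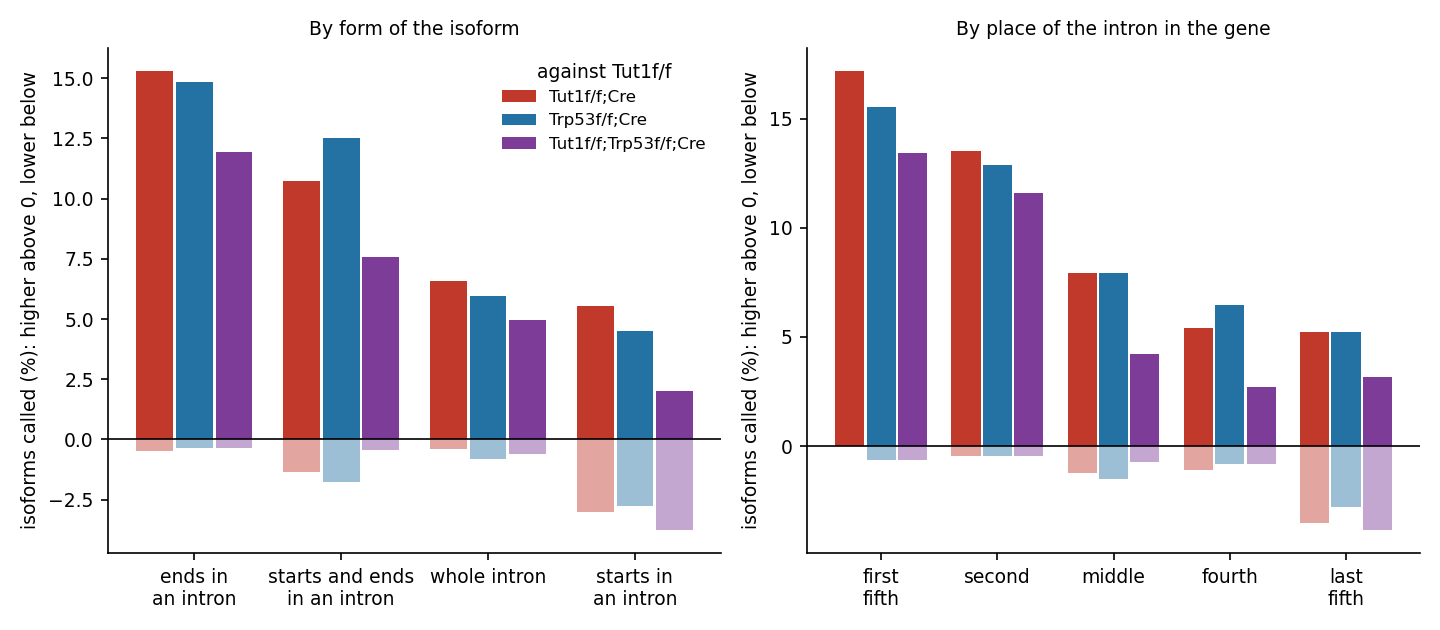
Percent of retained-intron isoforms called higher (above 0) and lower (below 0, pale) than in the control library in each of the 3 libraries that received Cre mRNA, by the form of the isoform (left) and by the place of its intronic sequence among the introns of the gene, from 5′ to 3′ in 5 bins (right). The bars for isoforms that end in an intron reach 15.3% in the Tut1-labelled library and those for isoforms that start in one reach 5.53%.

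A poly(A) signal, AATAAA or ATTAAA on the transcript strand anywhere in the last 50 bases, was present in 674 of the 2054 isoforms (32.8%), against 5267 of 6754 protein-coding isoforms (78.0%). Isoforms with the signal were called higher in the Tut1-labelled library in 42 of 674 (6.23%) and those without it in 171 of 1380 (12.4%). By form, the signal was present in 19.8% of isoforms that end in an intron, 42.0% of those that start in one and 51.2% of those with a whole intron. U6 snRNA pairs with the first intronic bases of the 5′ splice site. The fourth of them was A in 71.1% of 45 introns of isoforms called higher in the Tut1-labelled library and in 66.3% of 591 other retained introns, and the fifth was G in 68.9% and 79.0%.

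The largest rises in the Tut1-labelled library were in isoforms that end in an intron, in genes with few reads. Kansl3, a subunit of the NSL histone acetyltransferase complex, had 9 of 38, 31 of 33, 29 of 31 and 30 of 33 reads on an isoform that ends in intron 1, or 23.7%, 93.9%, 93.5% and 90.9% of the gene's reads. Naa40, an N-terminal acetyltransferase of histones, had 27.5%, 90.1%, 94.4% and 77.1% on one that ends in intron 1. Xrcc2, a protein of homologous recombination, had 0 of 55, 24 of 31, 15 of 26 and 18 of 36 reads, where 0 of 55 allows up to 5.45%, a rise of 77.4 points in the Tut1-labelled library (exact test, FDR = 4.57e-13). The isoform of Tef, a leucine zipper transcription factor, stood at 26.7%, 78.8%, 82.9% and 72.7%, and that of the uncharacterised gene 4833420G17Rik at 15.5%, 77.3%, 71.2% and 71.1%. In each of these genes the control library was the lowest.

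Other isoforms that end in an intron were called higher as well, some in genes with many reads. The isoform of Slc1a3, the glial glutamate transporter GLAST that also marks neural stem cells, had 22 of 1149, 124 of 984, 134 of 1010 and 129 of 909 reads, with intervals of 1.27 to 2.88% in the control library and 10.7 to 14.8% in the Tut1-labelled library. The intervals of the 3 libraries that received Cre mRNA overlapped each other. The isoform of Prpf4b, a kinase of the spliceosomal tri-snRNP, had 332 of 947, 773 of 1193, 811 of 1389 and 857 of 1275 reads and rose by 29.7, 23.3 and 32.2 points. It was 8.83 points higher in the double-labelled library than in the Trp53-labelled library (exact test, FDR = 6.81e-04), under the 10 points of a call. The isoform of Map2, a microtubule-binding protein, had 10.2%, 35.5%, 39.7% and 29.6%, that of Polk, a translesion DNA polymerase, had 22%, 67.5%, 72.3% and 60%, and that of Prpf31, a protein of the U4/U6 snRNP, had 29.6%, 66.7%, 53.9% and 62.5%. These 5 were called higher in the 3 comparisons with the control library.

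Whole introns were kept more often as well in some genes. Clk1, a kinase of SR splicing factors known for introns that stay in its nuclear RNA, had 25 of 178, 99 of 169, 83 of 138 and 71 of 169 reads on the isoform with 3 introns, or 14%, 58.6%, 60.1% and 42%. Copa, a coatomer subunit, had 25 of 243, 49 of 96, 60 of 125 and 48 of 102 reads, or 10.3%, 51%, 48% and 47.1%. Prc1, which bundles microtubules at the spindle midzone, had 5.78%, 22.2%, 28% and 17%, and Dlst, a subunit of 2-oxoglutarate dehydrogenase, had 1.72%, 30.6%, 45.6% and 21.8%. Gtf3c1, a subunit of the RNA polymerase III factor TFIIIC, had 0 of 34, 6 of 23, 11 of 30 and 8 of 26 reads, and 0 of 34 allows a usage of up to 8.82% in the control library. Ahsa1, an activator of Hsp90, had 234 of 716, 295 of 473, 306 of 517 and 219 of 453 reads, or 32.7%, 62.4%, 59.2% and 48.3%. Its usage in the double-labelled library lay between the control library and the others, 14 points below the Tut1-labelled library (exact test, FDR = 0.0152). Among 397 isoforms with a single kept intron, 2 of 81 with the first intron (2.47%), 21 of 284 with an internal intron (7.39%) and 1 of 31 with the last intron (3.23%) were called higher in the Tut1-labelled library against the control library, where 3.42% of all isoforms were. In the double-labelled library these were 5 of 81 (6.17%), 15 of 284 (5.28%) and 0 of 31, where 2.5% of all isoforms were, so the order was not the same.

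**Figure D3:**
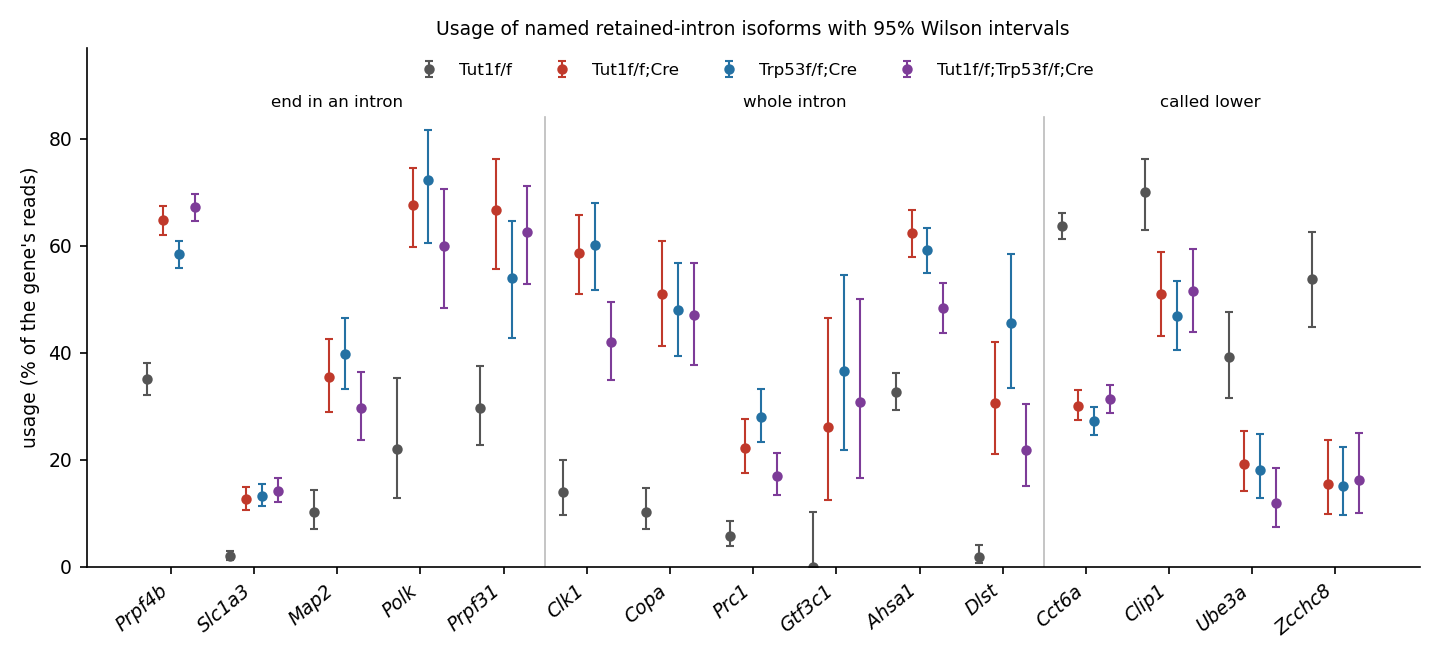
Usage, in percent of the gene's reads, of 15 named isoforms in the 4 libraries, as points with 95% Wilson intervals: 5 that end in an intron, 6 that keep a whole intron and 4 called lower. In the first 11 genes the control point is the lowest (Prpf4b 35.1% against 58.4 to 67.2%), and in the last 4 it is the highest (Zcchc8 53.8% against 15 to 16.1%).

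The 23 isoforms called lower in the Tut1-labelled library had a median length of 1502 bases, against 1656 for the 213 called higher. Cct6a, a subunit of the TRiC chaperonin, gave the most reads: 981 of 1541, 310 of 1029, 308 of 1132 and 369 of 1179, or 63.7%, 30.1%, 27.2% and 31.3%. GENCODE M21 lists no coding transcript of this gene, so its form could not be set. Zcchc8, a scaffold of the nuclear exosome targeting complex, had 53.8%, 15.5%, 15% and 16.1%, Ube3a, a ubiquitin ligase, had 39.3%, 19.1%, 18.1% and 11.9%, and Clip1, a microtubule plus-end protein, had 69.9%, 51%, 46.9% and 51.6%. Trim24, a chromatin reader, had 16 of 75, 2 of 182, 9 of 140 and 7 of 97 reads. In the Tut1-labelled library against the control library, 10 of the 23 isoforms called lower held their intronic sequence in the last 20% of the introns.

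A rise in usage can come from more reads of the isoform or fewer of the rest of the gene, and both were seen. Levels were set in CPM with TMM scaling, and fold changes are on the log2(level + 0.5) scale, which understates changes of low isoforms. Of the 213 isoforms called higher in the Tut1-labelled library, 201 were over 1.5-fold higher in level, and in 124 the other isoforms of the gene were over 1.5-fold lower. In 112 both held, in 76 the isoform was higher with the rest within 1.5-fold, and in 12 the rest was lower with the isoform within 1.5-fold. Levels were not tested between single libraries. The median log2 change was 2.03 for the isoform and -0.74 for the rest of the gene. In the Trp53-labelled library these medians were 1.95 and -0.80, and in the double-labelled library 2.12 and -0.43. Over all 2054 isoforms in the Tut1-labelled library they were 0.80 and 0.03. In Slc1a3 the isoform differed and the rest was level, with the isoform at 5.37, 40.8, 40.4 and 43.1 and the rest of the gene at 275.0, 282.8, 264.2 and 260.3 CPM. Pfkl, the liver form of phosphofructokinase, had its isoform at 0.976, 6.25, 9.35 and 4.34 and the rest at 141.3, 22.0, 30.8 and 22.4. For Cct6a the isoform went from 239.4 to between 92.9 and 123.1 and the rest from 136.6 to between 236.4 and 270.3.

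**Figure D4:**
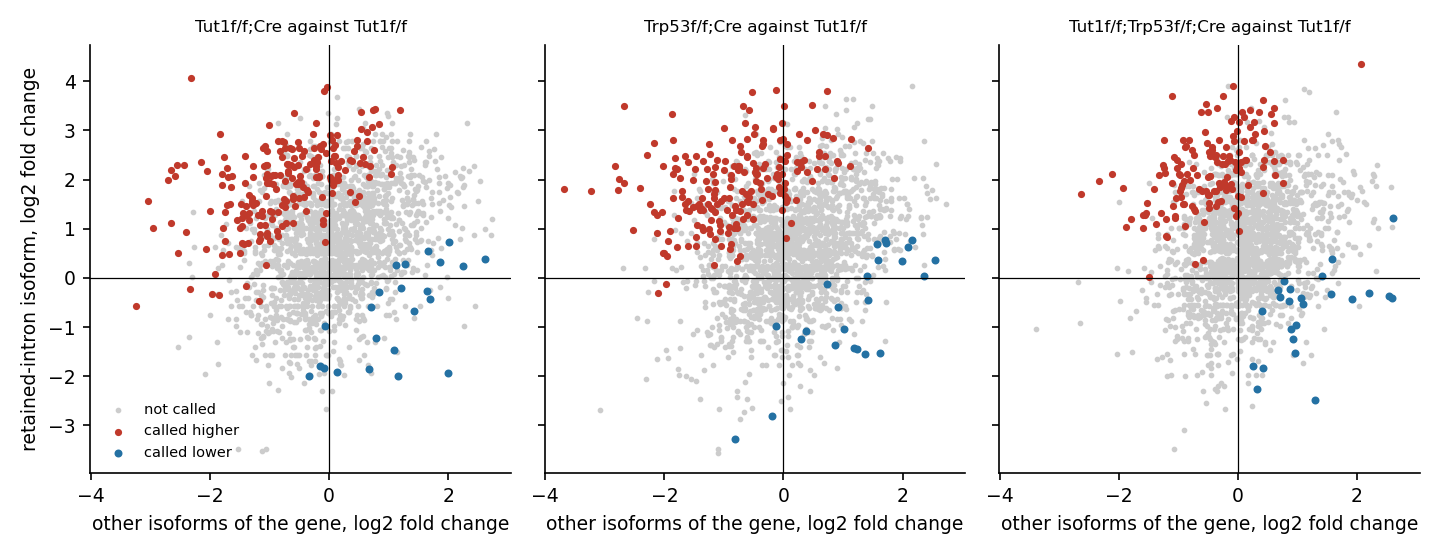
Log2 fold change against the control library, in CPM with 0.5 added, of each retained-intron isoform (vertical) and of all other isoforms of its gene (horizontal), 1 panel per library that received Cre mRNA. Each of the 2054 points is an isoform, red where called higher and blue where called lower. Of the 213 red points in the Tut1-labelled panel, 201 lie more than 1.5-fold above 0 on the vertical axis and 124 more than 1.5-fold left of 0 on the horizontal axis, with medians of 2.03 and -0.74.

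The comparisons without a common library set Tut1-deleted against Tut1-intact labels with Trp53 intact and with Trp53 deleted. Dmd, which encodes dystrophin, was the only one of the 2050 retained-intron isoforms called in the same direction in both, and 5 were called in opposite directions. Over all 22439 isoforms, 13 were called higher in both, 14 lower in both and 54 in opposite directions. It starts in intron 62 and ends in intron 70 of 78, and it had 15 of 171, 51 of 235, 39 of 247 and 79 of 237 reads, or 8.77%, 21.7%, 15.8% and 33.3%. It was higher by 12.9 points in the Tut1-labelled library against the control library (exact test, FDR = 0.00868) and by 17.5 points in the double-labelled library against the Trp53-labelled library (exact test, FDR = 0.00153). The other 4 called higher in the latter comparison were Tnrc6a, a partner of Argonaute, at 23.3%, 24%, 13.7% and 40.3%, Hirip3, a histone chaperone, at 11%, 22.3%, 14.8% and 30.5%, Metrn, a secreted neurotrophic factor, at 21.1%, 23.5%, 16.6% and 30.1%, and Eif5, an initiation factor, on an isoform with 3 kept introns at 0.877%, 6.11%, 2.49% and 14.7%. In all 5 the double-labelled library was the highest. The 10 called lower were Ahsa1, Cdca3, Dld, Myef2, Prc1, Rorb, Sf3b3, Tbce, Trappc4 and Xpnpep1, of which Rorb, with 28 reads in all, falls outside the rule for named genes. Of these, Ahsa1, Cdca3, Prc1, Sf3b3 and Xpnpep1 were called higher in the Tut1-labelled library against the control library. Dld, the shared dehydrogenase subunit of mitochondrial complexes, had 2.4%, 6.13%, 17.7% and 3.29%, and Trappc4, a vesicle tethering subunit, had 51.7%, 43.2%, 51.2% and 35.8%.

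Host genes were grouped by function, and each list's shares are to be read against the 10.4%, 10.2% and 7.56% of all tested retained-intron isoforms. Among hnRNPs and other splicing regulators, 9, 10 and 8 of 45 isoforms were called higher in the Tut1-, Trp53- and double-labelled libraries against the control library (20%, 22.2% and 17.8%) and 0 lower, with medians of 2.54, 2.59 and 1.66 points. These included Rbm4, a splicing and translation regulator with 16 of 99, 39 of 75, 34 of 70 and 35 of 70 reads, and Tia1, a stress granule protein with 13 of 250, 44 of 157, 37 of 205 and 34 of 157 reads. Of SR proteins and their kinases, 4, 4 and 3 of 35 were higher (11.4%, 11.4% and 8.57%) and 1, 1 and 2 lower, with medians of -0.15, -0.16 and 0.62 points. Srsf11 had 24 of 295, 54 of 135, 43 of 147 and 37 of 102 reads, while Srsf2 went the other way at 83.1%, 67.1%, 77.9% and 59.7% and was called lower in the double-labelled library only. Core spliceosome proteins gave 3, 3 and 2 of 48 (6.25%, 6.25% and 4.17%) and 0 lower, among them Prpf31, Sf3b3 and Eftud2, the U5 GTPase, with 0 of 214, 3 of 21, 4 of 21 and 5 of 40 reads. RNA decay, export and 3′ processing gave 1, 1 and 2 of 32 higher and 0, 1 and 1 lower, with Wdr33, a subunit of the poly(A) signal reader, at 1.75%, 16%, 15.3% and 18.9%.

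Membrane traffic, lysosome and autophagy genes had 9, 7 and 4 of 42 called higher (21.4%, 16.7% and 9.52%) and 0 lower, with medians of 3.79, 3.42 and 1.94 points. Beside Copa these held Arfgap1, a regulator of the ARF1 GTPase, at 18.5%, 46.4%, 52.8% and 59%, Rab5b at 3.33%, 31.8%, 34.8% and 31.1% and Sec31a, a COPII coat subunit, at 1.82%, 22.7%, 33.3% and 13.3%. DNA repair, replication and cell cycle genes had 12, 11 and 9 of 76 higher (15.8%, 14.5% and 11.8%) and 1, 2 and 1 lower, among them Polk, Xrcc2 and Recql5, a DNA helicase with 0 of 27, 12 of 29, 17 of 39 and 12 of 32 reads. Chromatin and transcription genes had 10, 13 and 8 of 88 higher (11.4%, 14.8% and 9.09%) and 2, 2 and 0 lower, with Nsd2, a histone methyltransferase, at 47.8%, 85.7%, 82% and 90% called in all 3. Setdb1, another, stood at 4.48%, 18%, 46.5% and 32.4% and was not called in the Tut1-labelled library. Cytoskeleton, motor and adhesion genes had 6, 7 and 5 of 60 higher (10%, 11.7% and 8.33%) and 1, 1 and 2 lower, with Ctnna1, the adherens junction protein alpha-catenin, at 2.45%, 35.3%, 41.7% and 26.9%. Mitochondrial and metabolic genes had 7, 7 and 6 of 84 higher (8.33%, 8.33% and 7.14%) and 0 lower, with Dlst and Pfkl in all 3. Neural stem cell and lineage genes had 2, 3 and 1 of 15 higher and 0 lower, which were Slc1a3 and isoforms of the RNA-binding protein Msi2. One of these ends in intron 7 at 7.69%, 34%, 27.3% and 27%.

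Translation genes stood at the low end, with 3, 3 and 2 of 114 isoforms called higher (2.63%, 2.63% and 1.75%), 0, 0 and 1 lower and medians of 0.02, -0.02 and 0.03 points. They included the isoforms with the most reads. Rpl23a, a protein of the large ribosomal subunit, had 13.2%, 15.2%, 13.4% and 15.2% and Rps13, of the small subunit, had 18.6%, 17.4%, 16.5% and 17.5%, neither called in any comparison. Cars, the cysteinyl-tRNA synthetase, was an exception at 0.763%, 22.4%, 15% and 16.4%. Folding and ubiquitin genes had 4, 4 and 3 of 57 higher (7.02%, 7.02% and 5.26%) and 2, 1 and 2 lower, with Usp14, a proteasome-bound deubiquitinase, at 2.76%, 28.8%, 30.8% and 23.7%. Noncoding and snoRNA host genes had 1 of 20 higher in each comparison and 0 lower, Dancr at 6.47%, 22.8%, 25.9% and 21.2%. Hosts in none of the lists had 142, 135 and 101 of 1341 called higher (10.6%, 10.1% and 7.53%), near the shares over all retained-intron isoforms.

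A last list held the genes with introns assayed by qPCR in the study. Of its 13 genes, 5 hosted 7 isoforms among those tested, of which 3, 1 and 1 were called higher. The isoforms were taken by gene and were not matched to the introns that were assayed. Gnl3, a nucleolar GTPase, had an isoform with 2 kept introns at 8.27%, 20.1%, 13.7% and 16.6%, called higher in the Tut1-labelled library alone (exact test, FDR = 0.00118). Its other isoforms stood at 6.47%, 11.2%, 11.1% and 7.89% and at 5.4%, 4.95%, 4.86% and 5.07%. Dhodh, an enzyme of pyrimidine synthesis, had 1 of 105, 8 of 32, 2 of 38 and 5 of 40 reads and was called in the Tut1-labelled library (exact test, FDR = 8.12e-04). C1qbp, a mitochondrial matrix protein, had 3.61%, 9.71%, 12.5% and 9.2%, and Prelid1, a mitochondrial lipid carrier, had 1.97%, 3.44%, 2.21% and 2.63%, with no call in any comparison. Prpf4b completed the list. The study assayed Prpf4b in neural stem cells and the others of these genes among events found in embryonic palliums, a tissue these libraries do not hold.

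Additive fits over the 4 libraries, with Tut1 status and Trp53 status as terms, left 1 residual degree of freedom. For usage, edgeR's exon-usage test called 0 of 2049 isoforms for Tut1 status and 0 for Trp53 status, against 0% higher and 0% lower of the 21738 isoforms tested for each. At an unadjusted p under 0.05, 39 passed for Tut1, of which 34 were higher, and 33 for Trp53, of which 25 were higher, while 222 and 152 of all 21738 isoforms passed. For level, edgeR's quasi-likelihood test called 0 of 898 for each, against 0% of 16846 isoforms for Tut1 and 0.00594% higher and 0% lower for Trp53. At an unadjusted p under 0.05, 30 and 10 passed in edgeR, against 228 and 166 of all 16846 isoforms, and 11 and 2 passed in DESeq2, which also called 0, against 99 and 79. A p that misses the threshold here does not show that the isoforms did not differ.

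At the lower read limit, the 98 isoforms with 10 reads had median usages of 0.794%, 1.98%, 1.80% and 1.80%, and the 109 left out with 9 reads had 0.556%, 1.61%, 1.71% and 1.94%. Where the gene's lowest library held 20 reads, the 19 isoforms had medians of 12.5%, 25%, 15% and 18.8%, and the 26 left out at 19 reads had 10.3%, 25.7%, 27.4% and 20.5%. On either side of both limits the control library gave the lowest median.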

How the data were processed

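The authors deposited 1 table of read counts per isoform for the 4 Nanopore libraries. The deposited count values are whole numbers, not normalized, on mm10 per the labels. The study names FLAIR for its long reads of embryonic palliums, and the tool that made this table is not given in the sources used here. A row carries an Ensembl transcript, a variant of one, or a read name, and it was joined to GENCODE M21 by transcript name. The members and lists were chosen with earlier results of these data known. There was 1 library per group, so p-values compare the reads of libraries. Columns that match no sample numbered 0.

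Usage was an isoform's share of its gene's reads, tested by a two-sided Fisher's exact test with Benjamini-Hochberg adjustment over all isoforms within the limits (10 isoform reads in all, 20 gene reads in each library). A call needed an FDR under 0.05 and 10 points. Wilson intervals (95%) and limits from a count of 0 (3 counts) cover counting error only, and the libraries held 3936827 to 5125888 reads. Introns were those of the principal coding transcript of a gene. Levels were CPM with TMM factors and a pseudocount of 0.5. Additive fits on the counts used edgeR 4.0.16 (diffSpliceDGE and the quasi-likelihood test) and DESeq2 1.42.0 in R 4.3.3. Other steps used Python 3.11.15, numpy 2.4.6, pandas 2.3.3, scipy 1.17.1, numba 0.67.0 and matplotlib 3.10.9. The scripts were tested on simulated data.

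Named isoforms were, in each of 3 comparisons (the Tut1-labelled and the Trp53-labelled library against the control, and the double-labelled against the Trp53-labelled library), the 10 called with the largest rise and the 10 with the largest fall among those with at least 30 reads. To these were added isoforms called the same way in both comparisons of Tut1 status that share no library, those of genes assayed by qPCR in the study, up to 4 called isoforms per functional list, and the 3 with the most reads. The 5 isoforms shown by the sequence of their end were chosen among these after their values were seen. Some named isoforms are not reported here.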

Additional observations from a re-analysis of the deposited data

Results flagged for a closer look

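The difference between the double-labelled and the Trp53-labelled library ran opposite to that between the Tut1-labelled and the control library in 5 isoforms called in both comparisons. It was -10.8 points for Ahsa1, -14.2 for Cdca3, -11.0 for Prc1, -22.0 for Sf3b3 and -18.7 for Xpnpep1. Each was higher in the Tut1-labelled library than in the control library, and whether the effects differ between the pairs was not tested.

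Reads at loci outside genes, which no comparison used, took 30.2% of all reads in the Tut1-labelled, 28.9% in the Trp53-labelled and 27.3% in the double-labelled library, above the 17.2% of the control library.

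Retained-intron rows outside the read limits took 0.194%, 0.172% and 0.183% of gene reads in the same libraries, above the 0.0991% of the control library.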

How the results depend on the processing

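Asking for 20 points in place of 10 left 121, 123 and 91 isoforms called, in either direction, in the Tut1-, Trp53- and double-labelled libraries against the control, 4 in the double-labelled against the Trp53-labelled library, and 0 against the Tut1-labelled library, where 5 points gave 2. A gene minimum of 50 reads gave 151, 152 and 115 against the control from fewer isoforms tested. With Ensembl-named isoforms only, 1 was called between the Tut1- and Trp53-labelled libraries, and Eif5 (ENSMUST00000221243), called higher in the Tut1-labelled library, reversed to -10.0 points, since the gene's other reads left the total. Of the other calls of named isoforms, 151 stayed and 11 kept their direction but were no longer called. With no minimum of reads per isoform, 172 stayed and 8 were no longer called. Isoforms called the same way in both Tut1 comparisons numbered 3 at 5 points and 0 at 20.

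The share of host-gene reads, in the order of the report, was 3.09%, 4.65%, 4.32% and 4.13% without the 3 isoforms with the most reads, 3.69%, 5.63%, 5.19% and 5.05% over Ensembl-named isoforms, and 3.67%, 8.70%, 7.45% and 7.46% as a median over genes. As a share of gene reads without the ribosomal RNA gene, chosen after seeing the data, it was 1.14%, 1.71%, 1.59% and 1.60%. The control was the lowest in each.

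Leaving out 1 library, with status alone in the fit, the calls for Tut1 status ranged from 0 to 92 for usage and 0 to 301 for level, and those for Trp53 status from 0 to 38 and 0 to 218. The highest values came without the Trp53-labelled library for Tut1 and without the Tut1-labelled library for Trp53, where the control was the only library left on its side. A lone library was assumed to vary like the others. No paired analysis was possible because the groups share a single replicate number. With 1 library per genotype, depth limits only the precision of each share.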
